A study of Mus musculus with 4 samples.

Results

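Stretches of the mouse autosomes with almost no CpGs were examined by whole-genome bisulfite sequencing (WGBS) of 4 embryonic brains. The autosomes were divided into tiles of 1000 bp, and a tile was taken when 3 to 5 CpGs were listed in it over the 4 libraries together and at least 3 of them had 5 or more reads in each library. This gave 549534 CpG-poor tiles of 1863069 tested tiles (29.5%). The choice used CpG number and coverage, not methylation level. Of 669144 listed tiles with 3 to 5 CpGs, 82.1% had enough covered CpGs; the others were not tested.

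The brains came from male E11.5 embryos of the strain 129S6.Cg-Tet1 tm1Koh, whose Tet1 allele carries a cassette inserted at its initiating ATG, so that the full-length transcript is lost. The allele was made in B6 mice and brought into 129S6 by backcrossing, and the study detected a short Tet1 transcript from a downstream start in knockout brains. All dams were Tet1+/− and ate a custom diet with an antibacterial sulfonamide, succinylsulfathiazole, and either 30 ppm (excess) or 3 ppm (control) folic acid (FA). The 4 groups were a knockout (KO) and a wild-type (WT) embryo at 30 ppm and a KO and a WT embryo at 3 ppm, with 1 embryo and 1 library in each group. According to their embryo numbers both KO embryos had a neural tube defect, both WT embryos looked normal and no pair shared a litter, so genotype, phenotype and litter cannot be told apart. No value below has a replicate, and every test compares libraries rather than conditions.

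CpG-poor sequence makes up much of the mammalian genome because methylated cytosines are readily lost by deamination over evolution. Its remaining CpGs are methylated by default in somatic tissue: DNMT1 copies methylation after replication, while TET enzymes such as TET1 oxidise 5-methylcytosine and are best known for acting at CpG-rich promoters, their shores and enhancers. Isolated CpGs flanked by A or T are known to keep methylation less well through cell divisions than other CpGs. Bisulfite reads do not separate 5-methylcytosine from 5-hydroxymethylcytosine.

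The CpG-poor tiles held 14.8% of all covered autosomal CpGs. Their median GC content was 38.6%, against 42.4% over all tested tiles, and a median of 25.8% of their bases lay in annotated repeats. A median tile had 59 reads in KO 30 ppm, 62 in WT 30 ppm, 96 in KO 3 ppm and 72 in WT 3 ppm, added over its covered CpGs. A read can cover more than 1 CpG, so intervals and tests below treat the counts as more independent than they are and cover counting error only. Mitochondrial CpGs, taken as a check of bisulfite conversion, were read as methylated in 0.914% to 0.938% of reads in the 4 libraries. Methylation tables hold no marker expression, so the tissue label was not checked.

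The sequences below come from tiles on which later comparisons turn; each is 200 bases of the + strand of GRCm38 in lower case, with the covered CpGs in capitals. The first 6 belong to tiles called higher in KO at both diets, the next to the only tile called lower at both, and the last pair to tiles whose KO − WT difference went opposite ways at the 2 diets. Between 1 and 4 capital pairs in 200 bases show how sparse the measured positions were.
Prep, chr10:44967181-44967380: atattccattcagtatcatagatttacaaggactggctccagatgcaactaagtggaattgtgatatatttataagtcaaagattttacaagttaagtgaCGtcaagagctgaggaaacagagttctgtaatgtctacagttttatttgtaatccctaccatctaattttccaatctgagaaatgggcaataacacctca
Cdc40, chr10:40872188-40872387: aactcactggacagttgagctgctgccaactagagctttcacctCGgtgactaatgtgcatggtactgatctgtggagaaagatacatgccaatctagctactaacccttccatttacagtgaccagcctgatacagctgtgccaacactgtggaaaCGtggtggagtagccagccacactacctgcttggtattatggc
Armc2, chr10:42075801-42076000: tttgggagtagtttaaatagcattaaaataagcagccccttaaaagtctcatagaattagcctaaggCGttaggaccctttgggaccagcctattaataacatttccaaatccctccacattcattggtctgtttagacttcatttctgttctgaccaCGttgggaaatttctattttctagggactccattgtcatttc
Sec63, chr10:42779001-42779200: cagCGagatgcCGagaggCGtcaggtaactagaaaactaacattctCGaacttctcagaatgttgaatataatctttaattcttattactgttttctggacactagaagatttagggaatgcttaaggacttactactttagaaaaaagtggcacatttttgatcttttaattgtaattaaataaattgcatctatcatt
Crybg1, chr10:44086147-44086346: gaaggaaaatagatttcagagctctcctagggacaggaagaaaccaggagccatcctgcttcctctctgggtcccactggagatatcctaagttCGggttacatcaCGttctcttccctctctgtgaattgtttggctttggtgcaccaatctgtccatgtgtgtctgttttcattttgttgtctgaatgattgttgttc
Scin, chr12:40132736-40132935: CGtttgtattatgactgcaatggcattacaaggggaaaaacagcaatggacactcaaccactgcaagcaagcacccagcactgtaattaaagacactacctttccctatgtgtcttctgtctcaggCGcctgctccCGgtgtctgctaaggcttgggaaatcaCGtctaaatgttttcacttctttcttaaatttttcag
Kcnt2, chr1:141512141-141512340: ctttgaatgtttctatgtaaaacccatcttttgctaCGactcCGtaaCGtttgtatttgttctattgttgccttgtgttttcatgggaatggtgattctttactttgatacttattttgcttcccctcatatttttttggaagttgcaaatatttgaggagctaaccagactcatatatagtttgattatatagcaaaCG
Ank3, chr10:69799486-69799685: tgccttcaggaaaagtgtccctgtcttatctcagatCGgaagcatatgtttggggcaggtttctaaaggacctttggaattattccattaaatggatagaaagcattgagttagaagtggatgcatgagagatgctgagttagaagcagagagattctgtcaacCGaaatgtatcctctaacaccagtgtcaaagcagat
4932414N04Rik, chr2:68754001-68754200: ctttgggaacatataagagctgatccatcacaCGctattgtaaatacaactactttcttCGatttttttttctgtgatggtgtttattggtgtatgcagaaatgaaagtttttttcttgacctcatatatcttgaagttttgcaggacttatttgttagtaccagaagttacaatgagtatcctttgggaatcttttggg

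The CpG-poor tiles were highly methylated in every library. The mean tile level, methylated reads over all reads of a tile, was 84.6% in KO 30 ppm, 83.996% in WT 30 ppm, 83.7% in KO 3 ppm and 84.8% in WT 3 ppm, so the KO was above the WT at 30 ppm and below it at 3 ppm. The SD over tiles was 11.9, 12.3, 11.6 and 12.03 points in the same order. The middle of the distribution was narrow: in KO 30 ppm the 25th, 50th and 75th percentiles were 81.4%, 87.7% and 92.0%, and in KO 3 ppm 80.9%, 86.7% and 90.8%. Full methylation of every read was seen in 1.11%, 0.852%, 0.146% and 0.640% of tiles in KO 30 ppm, WT 30 ppm, KO 3 ppm and WT 3 ppm, lowest in the library with the most reads per tile. Tile levels in the WT libraries of the 2 diets had Pearson's r = 0.859 over 549534 tiles, against 0.991 over the 87881 tiles with over 20 CpGs, which have more reads each and a wider range of levels; tiles are not independent replicates.

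**Figure D1:**
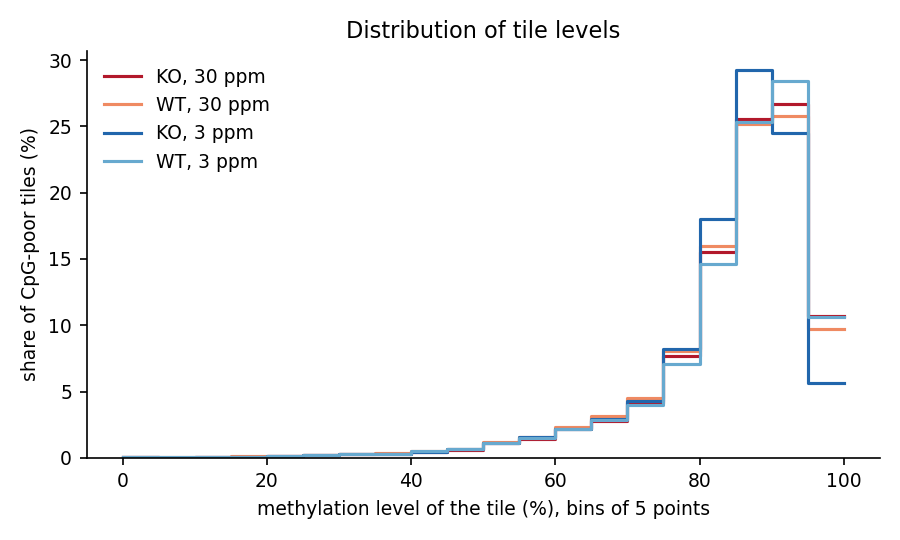
Share of the 549534 CpG-poor tiles (y axis, %) by methylation level in bins of 5 points (x axis, %), 1 line for each library. All 4 lines peak between 85% and 95%, and KO 3 ppm, with the most reads per tile, has the fewest tiles in the last bin.

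A small group of tiles escaped this high level. In all 4 libraries 606 tiles (0.110%) were under 20% and 7416 (1.35%) under 50%, while 353735 (64.4%) were at 80% or over. Of the 606 lowest tiles, 3.30% lay within 1 kb of a start site of a protein-coding gene and 17.2% within 2 kb of a tile with 20 or more CpGs, compared with 0.973% and 5.10% of all CpG-poor tiles. Their mean KO − WT difference came to 0.789 points at 30 ppm and to 0.626 points at 3 ppm, above 0 at both diets. The same levels chose these tiles. Tiles under 20% in the libraries of the other diet had means of 1.82 points at 30 ppm and 0.661 points at 3 ppm. Their medians were 0 and 0.121 points, with 49.8% and 50.9% of tiles above 0. Tiles within 1 kb of a start site averaged 81.1%, 79.6%, 80.2% and 80.4% in KO 30 ppm, WT 30 ppm, KO 3 ppm and WT 3 ppm, and tiles with an exon 86.95%, 86.1%, 86.2% and 86.8%. Single CpGs at 5% or less in all libraries, in tiles otherwise at 70% or more, numbered 26739 (1.26% of the covered CpGs) and lay in 26706 tiles (4.86%). These tiles averaged 64.9%, 64.6%, 64.2% and 65.04% in the same order of libraries.

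The immediate sequence around a CpG went with its level in all 4 libraries. Of the 2096722 covered CpGs that remained after leaving out positions at 5% or less in all libraries or split by genotype, 75.4% had no other CpG within 35 bp. Isolated CpGs with A or T on both sides were at 82.2%, 81.6%, 81.2% and 82.5% in KO 30 ppm, WT 30 ppm, KO 3 ppm and WT 3 ppm, the lowest of the 6 contexts in each library. Isolated CpGs with C or G on both sides were at 88.3%, 87.7%, 87.4% and 88.3%. CpGs with C or G on both sides and another CpG within 35 bp were highest, at 90.4%, 89.8%, 89.8% and 90.4%. KO − WT at 3 ppm was −1.27 points in the isolated A/T context and −0.595 points in the highest one, whereas at 30 ppm the same contexts had 0.622 and 0.629 points. In the other tested tiles the isolated A/T context had 1.92 points at 30 ppm and 0.164 points at 3 ppm, so equal immediate context did not give equal differences in CpG-poor and other tiles.

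**Figure D2:**
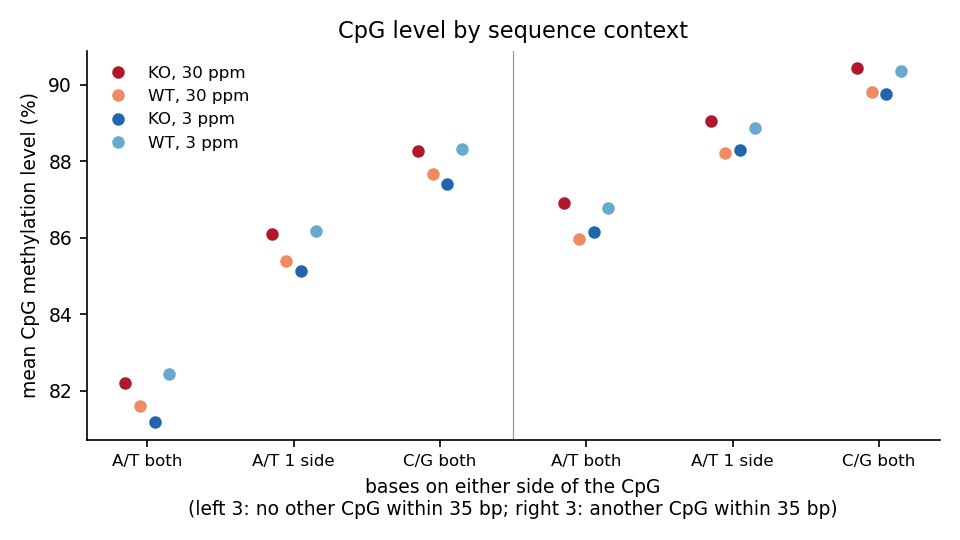
Mean methylation level (y axis, %) of CpGs in the CpG-poor tiles by flanking bases and presence of another CpG within 35 bp (x axis), 1 point for each library. Levels run from 81.2% for isolated CpGs between A/T bases to 90.4% for CpGs between C/G bases with a neighbour, in the same order of contexts in every library; the y axis does not start at 0.

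KO − WT over the CpG-poor tiles asked what loss of TET1 went with in this sparse background at each diet. At 30 ppm the mean difference was 0.644 points, with a 95% counting interval of 0.626 to 0.662 points. At 3 ppm it was −1.04 points (−1.06 to −1.03 points). The 19 autosomes all had a mean above 0 at 30 ppm, from 0.444 to 0.831 points, and none did at 3 ppm, where they ran from −1.21 to −0.834 points. Single tiles were far more spread than these means: 52.9% of tiles were above 0 at 30 ppm and 41.3% at 3 ppm. Over tiles KO − WT had an SD of 7.07 points at 30 ppm, where counting alone was estimated to give 6.80 points. For 3 ppm these values were 6.10 and 5.76 points. Both shifts are between 1 KO and 1 WT library and lie within about a point, so whether they belong to genotype, embryo or library was not tested.

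The opposite signs faded as tiles became denser. With 6 to 10 listed CpGs the mean KO − WT came to 1.38 points at 30 ppm and to −0.0953 points at 3 ppm, with 11 to 20 CpGs 2.63 and 1.44 points, and with over 20 CpGs 4.36 and 3.68 points. Within the CpG-poor tiles the same order held: tiles with 3, 4 and 5 CpGs had 0.441, 0.624 and 0.817 points at 30 ppm and −1.32, −1.06 and −0.806 points at 3 ppm. The range over autosomes did not overlap that of the tiles with 6 to 10 CpGs at either diet, which ran from 1.20 to 1.75 points at 30 ppm and from −0.349 to 0.345 points at 3 ppm. KO − WT at 30 ppm and at 3 ppm, which share no library, had Pearson's r = 0.0560 over the CpG-poor tiles and 0.621 over tiles with over 20 CpGs. Reads per tile differ between these classes, and their part in this gap was not tested.

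**Figure D3:**
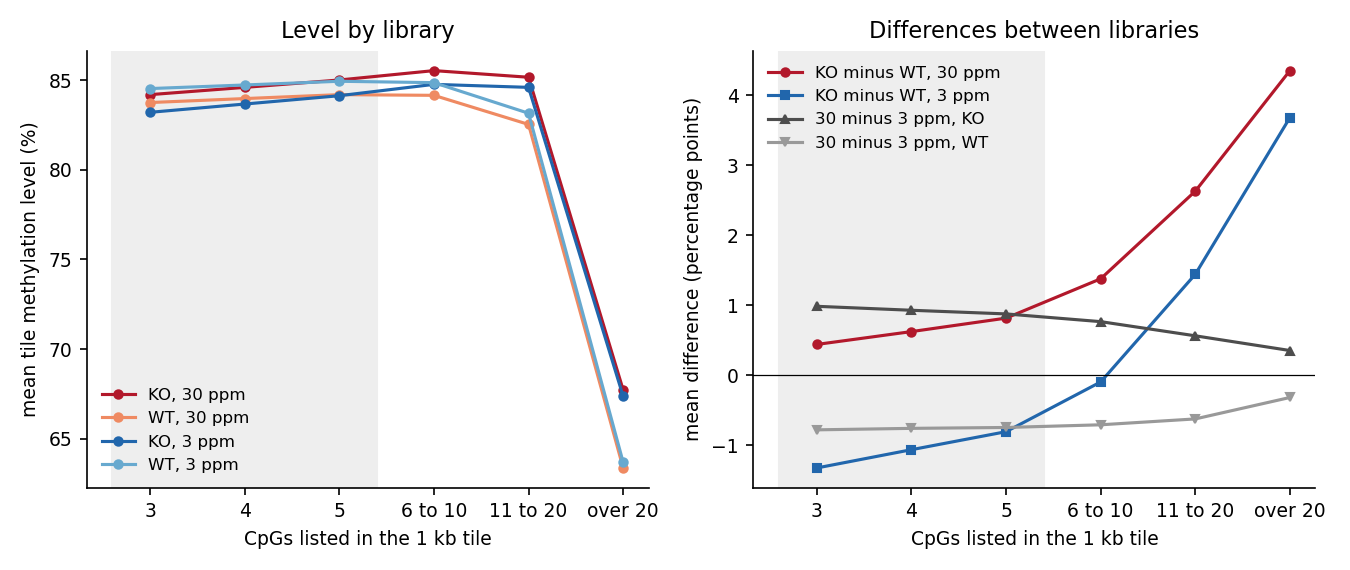
Mean tile methylation level in each library (left, %) and mean difference between libraries (right, percentage points) by the number of CpGs listed in the tile, with the CpG-poor tiles shaded. KO − WT goes from 0.441 points at 3 CpGs to 4.36 points at over 20 CpGs at 30 ppm and from −1.32 to 3.68 points at 3 ppm; the left axis does not start at 0.

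The 2 diets gave differences of similar size and opposite sign in the 2 genotypes. The KO library at 30 ppm was above that at 3 ppm by 0.926 points (counting interval 0.910 to 0.943 points), in 19 of 19 autosomes. The WT library at 30 ppm was below that at 3 ppm, with a difference of −0.760 points (−0.777 to −0.743 points) and no autosome above 0. Each diet difference shares its libraries with the KO − WT differences, so the 4 values are not independent. Unlike KO − WT, the diet differences became smaller with CpG number, to 0.354 points in KO and −0.317 points in WT at over 20 CpGs. Grouping the 4 mean levels by genotype gave a KO − WT difference of −0.199 points (exact permutation test, two-sided, p = 0.667), and grouping them by diet 0.0832 points (p = 1); with 2 against 2 libraries no p under 0.3333 can be reached.

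Few CpG-poor tiles differed enough to be called. Tiles were compared by two-sided Fisher's exact test on methylated and unmethylated reads, and called when the Benjamini-Hochberg adjusted p over all 1863069 tiles was under 0.05 and the difference at least 10 points. At 30 ppm 462 CpG-poor tiles were called higher in KO (0.0841%, against 1.13% of all tested tiles) and 173 lower (0.0315% against 0.0487%). At 3 ppm 357 were called higher (0.0650% against 1.1%) and 475 lower (0.0864% against 0.114%). The lower calls were the more frequent in CpG-poor tiles at 3 ppm but not at 30 ppm. CpG-poor tiles made up 22.5% of all lower calls but 1.75% of all higher calls at 3 ppm, both below their 29.5% of all tested tiles. When the test statistic was divided by its robust SD over all tiles, 48 higher and 7 lower tiles were called at 30 ppm and 63 and 14 at 3 ppm. That SD was 1.169 at 30 ppm and 1.2 at 3 ppm. In the CpG-poor tiles alone it was 1.058 and 1.065, so dividing by the SD over all tiles was stricter for them. After thinning all libraries to the shallowest at each CpG, 51 tiles were called higher and 30 lower at 3 ppm, and with a minimum of 20 points 268 higher and 166 lower. The majority of lower calls at 3 ppm was lost under these 3 settings. It held at 10 reads per CpG, where 387518 CpG-poor tiles remained (145 higher, 189 lower), and with shifted tile borders (336, 489). It also held without variant-like CpGs (327, 481) and without split CpGs, described below (289, 455). The last pair of settings mainly removes higher calls by construction and so does not test that majority. Every CpG split by genotype was high in KO, and split CpGs lay in 61 tiles called higher and 9 called lower at 3 ppm.

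Depth limited these calls. At the median reads of a CpG-poor tile, and a WT level of 85%, no higher level of the KO could have been called at 30 ppm, and a lower one only from a difference of −29.6 points. At 3 ppm the bounds were 14.2 and −24.3 points. Tiles called higher in KO at 30 ppm had a median of 91.6% in KO and 62.2% in WT, and tiles called lower 75.4% and 97.4%. These levels are part of the differences that were called and are given as a description. The sparse tiles were also called higher less often at equal reads: among tiles with 60 to 79 reads in the shallower library, 0.102% of CpG-poor tiles were called higher at 30 ppm, compared with 0.328% at 6 to 10, 1.43% at 11 to 20 and 4.83% at over 20 CpGs. At 3 ppm the corresponding shares were 0.0555%, 0.376%, 1.98% and 6.60%. Lower calls did not follow this order: their shares at the same reads were 0.0366%, 0.0420%, 0.0236% and 0% at 30 ppm and 0.0878%, 0.0732%, 0.0501% and 0.0579% at 3 ppm, where CpG-poor tiles had the highest. The mean difference at these reads was 0.583 points in CpG-poor tiles at 30 ppm and 5.57 points at over 20 CpGs. The classes were matched on reads but not on level. Over all their tiles, WT 30 ppm averaged 83.996% in CpG-poor tiles and 63.4% at over 20 CpGs. The part of level in the shares of higher calls was not tested.

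Diet calls were rarer still. In KO 66 CpG-poor tiles were called higher at 30 ppm than at 3 ppm (0.0120% against 0.043% of all tested tiles) and 23 lower (0.00419% against 0.0253%). In WT 6 were called higher (0.00109% against 0.00886%) and 19 lower (0.00346% against 0.0381%). None was called in the same direction by diet in both genotypes. A model over all 4 libraries, limma on log2((methylated + 1)/(unmethylated + 1)) with genotype and diet as terms, called none of the CpG-poor tiles for either term. At an unadjusted p under 0.05 it had 44815 CpG-poor tiles for genotype (8.16%, against 7.75% of all tested tiles; 19351 higher and 25464 lower in KO) and 39385 for diet (7.17% against 4.89%), with 1 residual degree of freedom.

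KO − WT varied with what surrounded a CpG-poor tile. By GC content of the tile, the mean at 30 ppm went from 0.173 points under 35% GC to 1.54 points at 44% and over, and at 3 ppm from −1.65 to 0.104 points. By distance to the nearest tile with 20 or more CpGs, it went at 30 ppm from 1.44 points at 1 to 2 kb to 0.356 points over 200 kb, and at 3 ppm from −0.117 to −1.41 points. The same order appeared with distance to a start site of a protein-coding gene, where tiles within 1 kb had 1.45 points at 30 ppm and −0.260 points at 3 ppm, while tiles over 200 kb away had 0.357 and −1.44 points. Both diets therefore had the higher KO − WT near CpG-dense sequence, around different baselines. Tiles of which 90% or more was annotated repeat had −0.290 points at 30 ppm and −1.91 points at 3 ppm, the only class of repeat content with a mean below 0 at 30 ppm. Reads per CpG moved with GC as well, from 18.9, 18.954, 30.5 and 22.3 under 35% GC to 12.5, 14.0, 20.6 and 16.0 at 44% and over in KO 30 ppm, WT 30 ppm, KO 3 ppm and WT 3 ppm. By mean reads per CpG, KO − WT at 30 ppm went from 1.12 points under 10 reads to 0.315 points at 30 reads and over. At 3 ppm it went from 0.297 to −1.59 points over the same classes. The part of reads in the trends with surroundings was not tested. The diet differences moved less, between 0.852 and 0.964 points in KO and between −0.862 and −0.586 points in WT over the same GC classes.

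**Figure D4:**
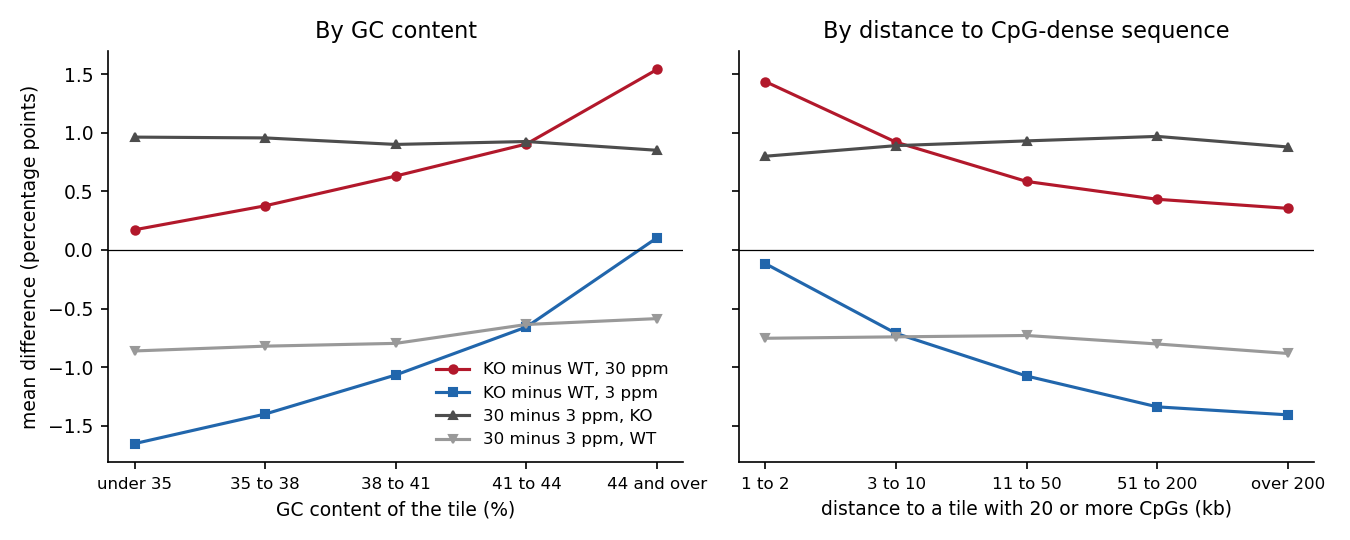
Mean differences between libraries in the CpG-poor tiles (y axis, percentage points) by GC content of the tile (left, %) and by distance to the nearest tile with 20 or more CpGs (right, kb), 1 line for each comparison. Both KO − WT lines run from 0.173 to 1.54 points and from −1.65 to 0.104 points across GC, and fall with distance from CpG-dense sequence, while the diet lines stay nearly flat.

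Level and surroundings each went with KO − WT. To keep the level apart from the difference, tiles were sorted by their mean level in the libraries of the other diet. At 30 ppm, tiles under 50% within 2 kb of a CpG-dense tile were at 37.7% in KO and 31.5% in WT, a mean difference of 6.20 points over 882 tiles, and 17 of them were called higher (1.93%, against 1.13% of all tested tiles). Equally low tiles over 10 kb away had 1.79 points over 9275 tiles, and tiles at 80% or over and over 10 kb away 0.310 points over 328856 tiles. At 3 ppm the same sets had 3.99, −0.357 and −1.32 points. Of the 9 sets made by level and distance, the low tiles near CpG-dense sequence had the highest mean KO − WT at both diets.

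Of the tiles called higher in KO, 35 were called at both diets, which is 7.58% of the 462 at 30 ppm and 9.80% of the 357 at 3 ppm. Over all tested tiles the shares were 32.4% and 33.5%. The 35 became 12 after thinning, 19 at 10 reads and 21 with shifted tile borders. They became 12 without variant-like CpGs and 11 without split CpGs. These last drops follow by construction, as 23 of the 35 held a CpG split by genotype. Some tiles then kept too few CpGs to be tested. Only 1 tile was called lower at both, which is 0.578% of the 173 at 30 ppm and 0.211% of the 475 at 3 ppm. Shared lower calls were also few over all tested tiles, with 10 tiles, or 1.10% and 0.473%. In tiles called higher at 30 ppm alone, KO − WT at 3 ppm had a median of 1.30 points and was above 0 in 58.1%. In those called higher at 3 ppm alone, the median at 30 ppm was 5.74 points and 70.8% were above 0. The 35 tiles were not spread over the genome: 25 lay on chromosome 10, which carries Tet1 and holds 5.40% of the CpG-poor tiles, and 23 held a CpG at 70% or more in both KO and at 5% or less in both WT libraries.

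The tiles with the largest differences at both diets were of that kind. The tile at chr10:44967001-44968000, whose nearest start is that of Prep, a prolyl endopeptidase gene, was at 90.6% in KO 30 ppm, 7.84% in WT 30 ppm, 81.5% in KO 3 ppm and 22.1% in WT 3 ppm. KO − WT was 82.8 points at 30 ppm (adjusted p from Fisher's exact test = 1.01e-16) and 59.5 points at 3 ppm (adjusted p = 5.33e-11). The CpG printed above in its sequence was at 100%, 0%, 90% and 0% in the same order, with 26, 23, 30 and 28 reads, and the CpG at position 44967047 was at 70%, 0%, 62.5% and 7.69%. The last covered CpG of the tile, at position 44967889, was at 100%, 80%, 93.3% and 92.9%, so the contrast lay in 2 of the 3 covered CpGs.

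Neighbouring CpGs behaved differently in the other chromosome 10 tiles too. In an intron of Sec63, which encodes a translocation factor of the endoplasmic reticulum, the 4 CpGs printed above lie close together: the first was at 88.9%, 93.5%, 100% and 96.6% in KO 30 ppm, WT 30 ppm, KO 3 ppm and WT 3 ppm, the second at 88.9%, 3.13%, 96.9% and 3.33%, the third at 95%, 0%, 100% and 3.23%, and the last at 91.3%, 94.3%, 100% and 94.7%. In an intron of Cdc40, a splicing factor gene, the first printed CpG was at 100%, 85.7%, 90.9% and 87.5% and the second at 100%, 0%, 81.8% and 0%. In both windows a CpG near 0 in the WT libraries stood beside one that was methylated in all 4. Tiles near Armc2 and in Ostm1, Crybg1 and 42.5 kb from the start of Prdm1 had KO − WT between 37.0 and 54.6 points at 30 ppm and between 35.9 and 59.4 points at 3 ppm, and each held at least 1 such CpG. Without those CpGs the Ostm1 tile had 9.18 and 12.2 points and was not called. The Sec63, Cdc40, Armc2, Crybg1 and Prdm1 tiles then kept fewer than 3 covered CpGs and were not tested. At 30 ppm the other Crybg1 CpGs were at 95.5% and 100% in KO and at 57.1% and 82.4% in WT. At 3 ppm they were at 93.1% and 100% in KO and at 60% and 65% in WT. After thinning, the Crybg1 tile had 35.5 points at 30 ppm and was no longer called there.

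The tile in an intron of Scin, at chr12:40132001-40133000, differed from these. Scin encodes scinderin, an actin-severing protein. The tile was at 83.0% in KO 30 ppm, 46.4% in WT 30 ppm, 86.2% in KO 3 ppm and 42.6% in WT 3 ppm, both KO libraries above both WT libraries. KO − WT was 36.5 points at 30 ppm (adjusted p from Fisher's exact test = 0.000222) and 43.6 points at 3 ppm (adjusted p = 3.55e-09). No CpG of it was near 0 in a WT library: its last 3 CpGs, printed above, were at 94.7%, 88.2% and 70.6% in KO 30 ppm, 50.0%, 36.8% and 15% in WT 30 ppm, 96.4%, 89.3% and 82.8% in KO 3 ppm, and 30.8%, 50.0% and 25% in WT 3 ppm. These 3 adjacent CpGs shared the direction of the difference at both diets. The other two CpGs of the tile, at positions 40132600 and 40132736, were at 95.5% and 53.8% in KO 30 ppm and at 100% and 58.8% in WT 30 ppm, lower in KO, but at 91.3% and 60% in KO 3 ppm and at 78.9% and 33.3% in WT 3 ppm. In all, 12 of the 35 tiles held no CpG split by genotype.

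The tile lower in KO at both diets, chr1:141512001-141513000, lay far from genes, with the start of the potassium channel gene Kcnt2 1266 kb away. It was at 85.5%, 100%, 77.7% and 94.5% in KO 30 ppm, WT 30 ppm, KO 3 ppm and WT 3 ppm. KO − WT was −14.5 points at 30 ppm (adjusted p from Fisher's exact test = 0.0355) and −16.8 points at 3 ppm (adjusted p = 0.0496), close to the threshold at both. It was not called at both diets at 10 reads per CpG, after thinning, with the robust SD, with a minimum of 20 points or without split CpGs (adjusted p from Fisher's exact test at 3 ppm = 0.0507), and no tile was called lower at both with shifted borders.

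CpGs near 0 in 1 library and high in another were then counted without regard to genotype. A CpG was called split when it was at 5% or less in at least 1 library and at 70% or more in another, with 10 or more reads in both; this definition was made after the levels were seen. There were 235 split CpGs in 214 tiles (0.0389% of the CpG-poor tiles), and 92.8% lay on chromosomes 2 (113 CpGs) and 10 (105 CpGs). They fell into few patterns. In 53 CpGs, all between 40.4 and 56.9 Mb of chromosome 10, the median was 91.7% in KO 30 ppm, 0% in WT 30 ppm, 91.3% in KO 3 ppm and 0% in WT 3 ppm. In 79 CpGs, all between 66.3 and 69.3 Mb of chromosome 2, it was 91.7%, 43.8%, 0% and 46.5% in the same order, so the 2 KO libraries were at opposite ends and both WT libraries in between.

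Further patterns lay next to these. In 15 CpGs, 14 of them between 69.004 and 70.2 Mb of chromosome 2, the medians were 0%, 43.3%, 87.5% and 43.8% in KO 30 ppm, WT 30 ppm, KO 3 ppm and WT 3 ppm, the reverse order in the KO libraries. In 35 CpGs, 29 of them between 65.9 and 69.8 Mb of chromosome 10, they were 43.8%, 42.9%, 87.5% and 0%. Chromosome 10 split CpGs of this kind started 3.04 Mb from the Tet1 start site, on the other side of it from the 53 above, whose nearest was 6.05 Mb away. No CpG-poor tile held a CpG at 5% or less in both KO and at 70% or more in both WT libraries. Whether sequence differences between the embryos underlie these CpGs was not tested.

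**Figure D5:**
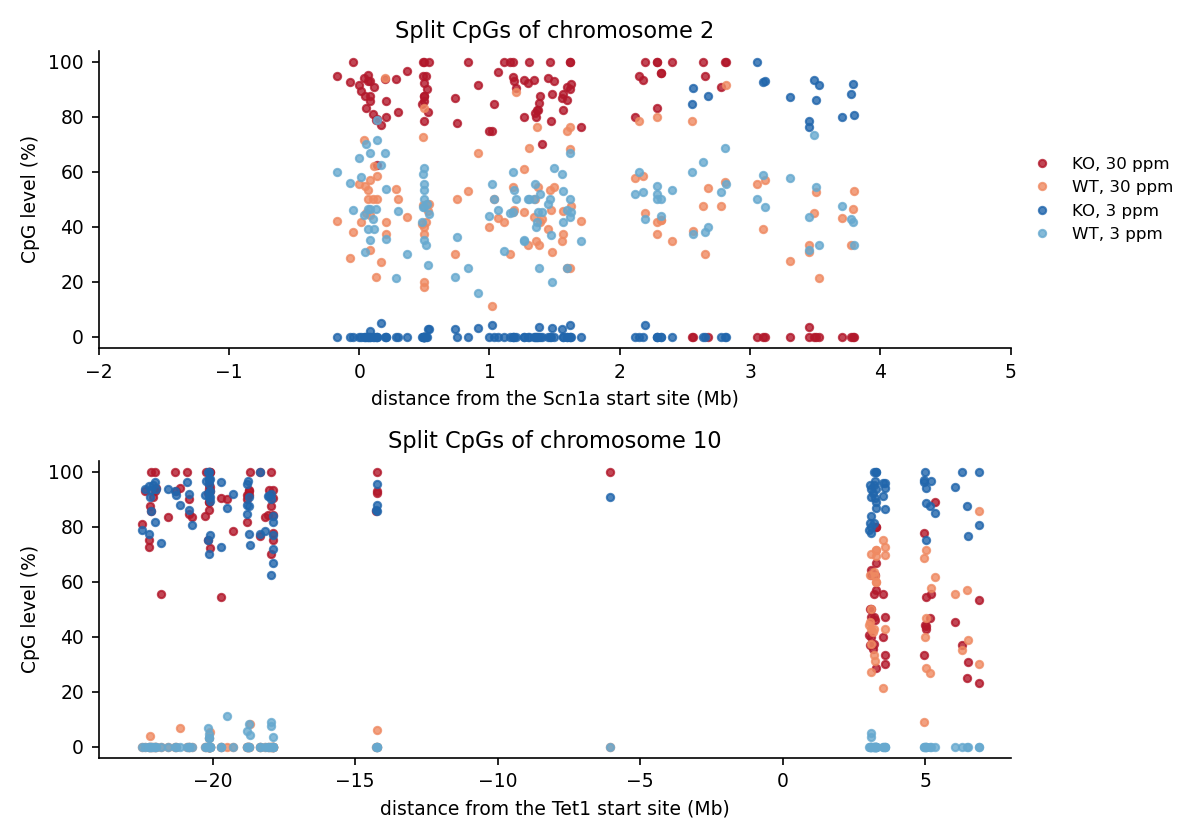
Methylation level (y axis, %) of single split CpGs in the CpG-poor tiles against distance from the Scn1a start site on chromosome 2 (top, Mb) and from the Tet1 start site on chromosome 10 (bottom, Mb), 4 points for each CpG, 1 for each library. Of the 110 CpGs shown on chromosome 2 (3 lie outside the range plotted), 91 have KO 30 ppm above and KO 3 ppm below both WT libraries, the last of them at 2.81 Mb, 16 have the reverse order, the first of them at 2.55 Mb, and 3 have neither; on chromosome 10 left of Tet1 both KO libraries are high and both WT libraries near 0.

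The diet calls in KO often held a split CpG. As split CpGs are defined by a large difference between libraries, called tiles tend to hold them, and leaving them out lowers the calls by construction; the shares below are a description. A split CpG was present in 40 of the 66 tiles called higher at 30 ppm in KO (60.6%) and in 9 of the 23 called lower (39.1%), but in 40 of the 462 tiles called higher in KO at 30 ppm (8.66%), 61 of the 357 at 3 ppm (17.1%), 9 of the 475 called lower at 3 ppm (1.89%) and none of the 173 called lower at 30 ppm. Of the 66 tiles, 45 lay on chromosome 2, which holds 7.54% of the CpG-poor tiles. With split CpGs left out, an alternative added after seeing the data, 23 tiles were called higher and 10 lower by diet in KO, and 11 higher in KO at both diets.

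The interval from 66 to 68 Mb of chromosome 2 held the 1 Mb window with the lowest KO − WT mean at 3 ppm. It contains the sodium channel genes Scn1a, Scn9a and Scn7a and has 625 CpG-poor tiles. Their mean level was 87.6% in KO 30 ppm, 85.7% in WT 30 ppm, 83.1% in KO 3 ppm and 86.3% in WT 3 ppm, giving KO − WT of 1.88 points at 30 ppm, −3.17 points at 3 ppm and a diet difference of 4.48 points in KO. Without split CpGs these became 0.529, −1.72 and 1.73 points over 594 tiles. The rest of chromosome 2, outside 60 to 75 Mb, had 0.719, −0.961 and 0.898 points over 38011 tiles.

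Whether KO − WT differed between the diets in single tiles was asked by a Wald test of the difference of log odds ratios over all 4 libraries. It called 37 CpG-poor tiles (0.00673%, against 0.0692% of all tested tiles), 29 with the larger KO − WT at 30 ppm and 8 with the larger at 3 ppm, and 14 of them held a split CpG. There were 3 calls after thinning, 21 without split CpGs and 23 at 10 reads. The tile at chr2:68754001-68755000, 97.5 kb from the start of 4932414N04Rik, was at 91.7% in KO 30 ppm, 53.7% in WT 30 ppm, 19.5% in KO 3 ppm and 65.4% in WT 3 ppm. KO − WT came to 38.01 points at 30 ppm and to −45.9 points at 3 ppm (Wald test, adjusted p = 4.90e-07). Its printed CpGs were at 95.8% and 96.0% in KO 30 ppm, 42.4% and 42.4% in WT 30 ppm, 0% and 0% in KO 3 ppm, and 50.0% and 44% in WT 3 ppm, while the CpG at position 68754940 was at 72.7%, 100%, 100% and 96.7%.

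The tile at chr10:69799001-69800000, in an intron of Ank3, which encodes the scaffold protein ankyrin G, was at 57.1%, 81.6%, 94.0% and 27.4% in KO 30 ppm, WT 30 ppm, KO 3 ppm and WT 3 ppm. Its KO − WT came to −24.5 points at 30 ppm and to 66.6 points at 3 ppm (Wald test, adjusted p = 3.87e-07). Its printed CpGs were at 53.3% and 27.8% in KO 30 ppm, 85.7% and 63.2% in WT 30 ppm, 100% and 88.0% in KO 3 ppm, and 0% and 8% in WT 3 ppm. Another pair of tiles, 1150 and 678 kb from the start of the histone demethylase gene Jmjd1c, had KO − WT of −10.7 and −6.39 points at 30 ppm and 65.9 and 50.8 points at 3 ppm. Without split CpGs the second of these had −0.192 points at 3 ppm, whereas the Ank3 tile had −21.2 points at 30 ppm and 51.1 points at 3 ppm (adjusted p from Fisher's exact test at 3 ppm = 5.67e-06). In the Ank3 tile the remaining 3 ppm difference lay in the CpG at position 69799650, at 88% in KO and 8% in WT and so just outside the definition of a split CpG; the other two were at 100% and 90.5% in KO and at 100% and 87.5% in WT.

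Along the chromosomes the 2 diets shared a pattern more plainly than over single tiles, where Pearson's r was 0.0560. For single tiles the SD estimated from counting alone lay near the whole SD, with 6.80 against 7.07 points (30 ppm) and 5.76 against 6.10 points (3 ppm). That estimate can run high. For 30 − 3 ppm in WT over tiles with 3 CpGs it reached 7.06 points, above the whole SD of 6.997 points. The part of counting in the low r over single tiles was not tested. Over 2101 windows of 1 Mb with at least 100 CpG-poor tiles, mean KO − WT ran from −1.44 to 4.10 points at 30 ppm, above 0 in 1841 windows (87.6%), and from −3.33 to 2.63 points at 3 ppm, above 0 in 219 (10.4%). The differences at the 2 diets had Pearson's r = 0.557 and Spearman's rho = 0.546 over these windows, which share GC content and neighbouring tiles; r with the GC content of the window was 0.493 at 30 ppm and 0.626 at 3 ppm. The highest window at 3 ppm was on chromosome 15, with 159 CpG-poor tiles at 82.9% in KO 30 ppm, 79.4% in WT 30 ppm, 82.5% in KO 3 ppm and 79.9% in WT 3 ppm. Its other 748 tested tiles had a similar KO − WT, 3.89 points at 30 ppm and 2.60 points at 3 ppm, against 3.504 and 2.63 points in the CpG-poor ones.

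That window ends within the Hoxc cluster and holds only part of it. The Hox genes encode homeodomain factors that set position along the body axis, and they were added after their values were seen. The 4 clusters held 33 CpG-poor tiles, which averaged 25.1% in KO 30 ppm, 16.3% in WT 30 ppm, 23.9% in KO 3 ppm and 15.7% in WT 3 ppm. KO − WT averaged 8.81 points at 30 ppm and 8.14 points at 3 ppm. It was above 0 in 26 and 27 of the 33 tiles, or 78.8% and 81.8%, compared with 52.9% and 41.3% of all CpG-poor tiles. The low tiles within 2 kb of CpG-dense sequence described above had 70.7% and 64.7% above 0, and the difference from that set was not tested. Of the Hox tiles, 1 at 30 ppm (3.03%, against 1.13% of all tested tiles) and 3 at 3 ppm (9.09% against 1.1%) were called higher, all in Hoxc. A tile overlapping Hoxc13 was at 33.8% in KO 30 ppm, 9.89% in WT 30 ppm, 29.4% in KO 3 ppm and 17.6% in WT 3 ppm, and was called at 30 ppm (difference 23.9 points, adjusted p from Fisher's exact test = 0.0307). A tile nearest Hoxc12 was at 51.2%, 40.4%, 60.4% and 28.6% in the same order and was called at 3 ppm (31.8 points, adjusted p = 0.00101).

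Tiles in introns had a mean KO − WT of 0.858 points at 30 ppm and −0.752 at 3 ppm, and intergenic tiles 0.518 and −1.22 points. Long neuronal genes lay closer to the intergenic values. The median GC content of their tiles was 37.4%, against 38.6% over all CpG-poor tiles, and its part was not tested. In 24 long neuronal genes, many of them encoding adhesion or synapse proteins, 12351 tiles averaged 83.9% in KO 30 ppm, 83.4% in WT 30 ppm, 82.8% in KO 3 ppm and 84.2% in WT 3 ppm. Mean KO − WT came to 0.541 points at 30 ppm and to −1.38 points at 3 ppm, with medians of 0.404 and −1.46 points against 0.493 and −1.18 points over all CpG-poor tiles. The gene means were above 0 in 23 of 24 genes at 30 ppm and in 0 of 24 at 3 ppm. Cntnap2, which encodes a neurexin-like axonal protein, had 880 tiles with 0.438 and −1.69 points, Rbfox1, a splicing regulator, 448 tiles with 1.21 and −0.694 points, and Galntl6, a glycosyltransferase gene, was the exception at 30 ppm with −0.0519 points over 373 tiles. In these 12351 tiles 6 were called higher (0.0486%) and 7 lower (0.0567%) at 30 ppm, and 8 higher (0.0648%) and 15 lower (0.121%) at 3 ppm. Over all tested tiles the shares were 1.13%, 0.0487%, 1.1% and 0.114%, and over the CpG-poor tiles 0.0841%, 0.0315%, 0.0650% and 0.0864%.

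The large gene families of CpG-poor regions varied around the background of 0.644 and −1.04 points. The olfactory receptor genes (Olfr) held 3046 tiles with KO − WT of 0.122 points at 30 ppm and −1.48 points at 3 ppm, the vomeronasal receptors (Vmn1r and Vmn2r) 1783 tiles with 0.385 and −1.68 points, and the zinc finger genes named Zfp 2390 tiles with 0.481 and −0.706 points. The cytochrome P450 genes (Cyp) had 0.214 and −1.27 points over 672 tiles, the killer cell lectin-like receptors (Klr) 2.00 and −0.292 points over 115, the beta-defensins (Defb) 0.835 and −1.21 points over 49 and the major urinary proteins (Mup) 0.742 and −2.01 points over 26. All 7 families were above 0 at 30 ppm and below 0 at 3 ppm. Median GC content of their tiles ran from 36.1% in Olfr to 41% in Defb, and its part in these differences was not tested. The most calls of a family in a direction were 7 Olfr tiles lower in KO at 3 ppm, 0.2298% of its tiles against 0.0864% of all CpG-poor tiles and 0.114% of all tested tiles. The other families had 0 to 3 calls in each direction at each diet. In the smallest of them a single call is a large share: 1 Mup tile lower at 3 ppm is 3.85% of 26 tiles, and 1 Defb tile higher at 3 ppm is 2.04% of 49.

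Genes of folate and methyl metabolism held few CpG-poor tiles. In 16 of 23 folate and one-carbon genes there were 85 such tiles, with KO − WT of 3.23 points at 30 ppm and −0.155 points at 3 ppm. There was 1 call (1.18% of the tiles, against 1.13% of all tested tiles), a tile higher in KO at 30 ppm in Shmt1, a serine hydroxymethyltransferase gene outside the rule for named genes. Aldh1l1, a formyltetrahydrofolate dehydrogenase gene and the only one with 20 or more tiles, had 2.56 and −0.147 points over 21 tiles. The DNA methylation machinery held 32 tiles in 6 of 8 genes, with 0.434 and 0.608 points and no call. At 3 ppm the medians of both lists had the opposite sign to their means, 0.172 points in the folate genes and −0.0290 points in the methylation machinery. Median GC content was 42.5% in the first list and 41.95% in the second, above that of the CpG-poor tiles as a whole.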

How the data were processed

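WGBS measured CpG methylation in 4 brains, 1 per genotype and diet; groups came from the labels. Per the study's methods and the submitters' processing notes, the authors trimmed reads with Trim Galore 0.6.10, aligned them with Bismark 0.23.1 to GRCm38.p6 (mm10), removed duplicates and merged both strands of a CpG. The deposited tables give, as the authors computed them, a methylated fraction from 0 to 1 and a read count per CpG, with at least 2 reads; fraction times count was a whole number throughout. The authors' lists of differentially methylated regions hold positions of their own comparisons and were not used. Mean coverage per listed autosomal CpG was 13.2, 14.3, 21.2 and 16.2 reads in KO 30 ppm, WT 30 ppm, KO 3 ppm and WT 3 ppm.

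Reads were summed over the covered CpGs of each 1 kb tile (5 or more reads in all 4 libraries), and the tile level is methylated over all reads. Fisher's exact test and the Wald test (0.5 added to each count) were run over all 1863069 tiles in Python 3.11.15 with SciPy 1.17.1, and limma 3.58.1 in R 4.3.3, after tests on simulated data. The 95% counting intervals of mean differences take reads as binomial. Genes, repeats and sequences came from the GRCm38 reference, on which all 18974562 listed autosomal CpGs fall on CG.

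Named tiles had 15 or more reads in each library and were the 8 with the largest smaller difference among tiles higher in KO at both diets, up to 5 lower at both, up to 3 called by diet in both genotypes (there were none) and 4 by Wald p. Of listed genes, those with 20 or more tiles could be named. Sequences of the Wald tiles were added after their values were seen, as were the Hox tiles and split CpGs. The tile rule, lists and tests were chosen with earlier results of these data known. Alternatives tried were other coverage minimums, thinning, removal of variant-like CpGs (at 5% or less in all libraries within a tile otherwise at 70% or more, or split by genotype) or of chromosome 10, shifted tile borders, other level and call definitions and other limma scales.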

Additional observations from a re-analysis of the deposited data

Results flagged for a closer look

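The mean KO − WT difference over the CpG-poor tiles came to 0.644 points at 30 ppm and to −1.04 points at 3 ppm, so the same contrast went opposite ways in the libraries of the 2 diets. The 30 − 3 ppm difference was 0.926 points in KO and −0.760 points in WT. Both pairs rest on 1 library a group, and the difference between the groups was not tested.

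The Wald test, which asks of a single tile whether KO − WT differed between the diets in these libraries, called 37 CpG-poor tiles. The 4 with the lowest adjusted p were the tile in Ank3 (3.87e-07), that nearest 4932414N04Rik (4.90e-07) and the pair nearest Jmjd1c (0.000455 and 0.000475). All 4 held CpGs near 0 in 1 library and high in another.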

How the results depend on the processing

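No paired analysis was possible because each group had 1 library. Of the alternative values for means and counts, 62 stayed within the counting interval of the mean or 1.5 times the count and 40 did not; no mean changed sign. The 62 include the limma settings, which called 0 tiles as the main fit did. Mean KO − WT at 30 ppm was 0.679 points from CpG means, 0.595 points with every CpG covered and 0.564 points at 10 reads. At 3 ppm it was −1.0001, −1.12 and −1.17 points under the same settings, −1.03 points with no minimum beyond listing and −1.06 points without variant-like CpGs; 30 − 3 ppm in WT was −0.806 points at 10 reads. The cause was not tested.

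The number of calls depended on the setting. Thinning and the 10-read minimum use fewer reads, and the 20-point minimum and the robust SD are stricter. The 10-read minimum also left 387518 CpG-poor tiles to test, against 549534. Under these settings Fisher and Wald calls were counted in the CpG-poor tiles only. Leaving out split CpGs removes calls by construction, and leaving out variant-like CpGs removes higher calls in KO. Without variant-like CpGs, lower calls in KO numbered 177 at 30 ppm and 481 at 3 ppm, against 173 and 475. For the other settings the cause was not tested. In the order higher and lower for KO − WT at 30 ppm, the same at 3 ppm, 30 − 3 ppm in KO and in WT, the robust SD gave 48, 7, 63, 14, 21, 7, 2 and 3, the minimum of 10 reads 240, 82, 145, 189, 42, 12, 3 and 9, and thinning 118, 34, 51, 30, 19, 0, 1 and 1. Thinning and the 10-read minimum left 3 and 23 Wald calls. A 20-point minimum left 106 lower calls at 30 ppm and, at 3 ppm, 166 lower beside 268 higher. Without split CpGs, added after seeing the data, there were 23 higher and 10 lower diet calls in KO and 21 Wald calls, and the second tile near Jmjd1c changed from 50.8 to −0.192 points at 3 ppm. Higher calls at both diets numbered 35, or 19 at 10 reads, 12 after thinning, 12 without variant-like CpGs, 21 with shifted borders and 11 without split CpGs. The limma model called 0 tiles under each setting, with 43709 (7.95%), 47374 (8.62%) and 26485 (6.83%) CpG-poor tiles at an unadjusted p under 0.05 for genotype at a pseudocount of 0.5, on the fraction scale and at 10 reads, against 7.20%, 8.58% and 7.01% of all tested tiles.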
